A study of Mus musculus with 40 samples.

Results

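Heads of control mouse embryos were compared at embryonic days E10.5 and E11.5, on 4 arrays for each stage and thus on 8 of the 40 arrays of the series. The samples were chosen by their titles and labels, which give a head, an unmutated genotype, the strain C3HeB/FeJ and the stage. These controls are wild-type littermates of *Aey69* mice, a line with a chemically induced mutation in the histone gene *Hist2h3c1*, and they carry no transgene and received no treatment. Each sample is labelled as a biological replicate, without a statement of how many embryos it holds, and head is the tissue given for both stages. RNA was hybridized to bead arrays of Illumina that carry probes for mouse genes. A level is given as log2 of the normalized signal, so that a log2 change of 1 is a doubling, and the lowest signal that was detected on an array lay between 5.01 and 5.18. Changes are E11.5 minus E10.5, as differences of the group means on this log2 scale, with the standard error (SE) of the fit. Arrays carry the authors' numbers 2, 3, 4 and 5 within each stage, and values of single arrays follow that order. Genes with a detection p below 0.05 on 3 or 4 arrays of a stage were taken as detected. They were called higher or lower at E11.5 (rose or fell) at a false discovery rate of 10% in limma, with p-values adjusted over all 25697 probes.

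Over this day of development the neural tube wall of the brain begins to release large numbers of neurons, which leave the cell cycle, extend axons and switch on transmitter genes. In the same period the facial prominences, filled with mesenchyme of neural crest and mesoderm origin, grow out, the lens vesicle closes, the otic vesicle and the pigmented layer of the eye take shape, and the early macrophages of the yolk sac spread through the embryo. *Hox* genes mark the body axis from the hindbrain backwards and are silent in the forebrain and midbrain, and genes of the cardiac sarcomere are used in the heart. Both sets therefore serve as a check of which parts of an embryo a sample holds.

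This check went against the label at E10.5. *Nppa*, which encodes the atrial natriuretic peptide, had log2 signals of 10.85, 10.41, 10.35 and 10.93 at E10.5 and of 4.58, 4.60, 9.97 and 4.64 at E11.5. All E10.5 arrays and array 4 of E11.5 were thus high, and the other E11.5 arrays lay at background. *Myl7*, the atrial myosin light chain, had 10.12, 9.20, 9.90 and 10.29 at E10.5 and 4.39, 4.08, 8.46 and 4.14 at E11.5, with the same arrays high. *Hoxc9*, a gene of the trunk, had 8.89, 9.04, 8.57 and 9.20 at E10.5 and 4.00, 4.17, 7.72 and 4.14 at E11.5. In whole control embryos of E9.5, which were measured in the same series, the mean signals were 10.18 for *Nppa* and 8.92 for *Hoxc9*, a level like that of the E10.5 heads. *Hoxc10*, a gene of the lumbar level, had 8.77, 8.20, 7.61 and 7.90 at E10.5 and 5.25, 5.15, 5.34 and 5.58 at E11.5, and *Cdx2*, a gene of the posterior body and tail end that was picked after its values were seen, had 7.59, 5.99, 7.03 and 7.37 and 4.75, 4.83, 4.71 and 4.23. For *Hoxc10* and *Cdx2* array 4 lay with the other E11.5 arrays. Other posterior *Hox* genes were high on it: *Hoxd10* had 7.58 on array 4 and 4.45 to 4.66 on the others, and *Hoxd12*, named after its values were seen, had 5.93 on array 4 and was not detected on the others. Over 14 detected heart genes the mean log2 signal was 7.88 to 8.63 on the E10.5 arrays, 7.44 on array 4 of E11.5 and 4.65 to 4.74 on the other E11.5 arrays. Over 23 detected *Hox* genes it was 7.87 to 8.02, 7.43 and 4.82 to 5.64.

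**Figure D1:**
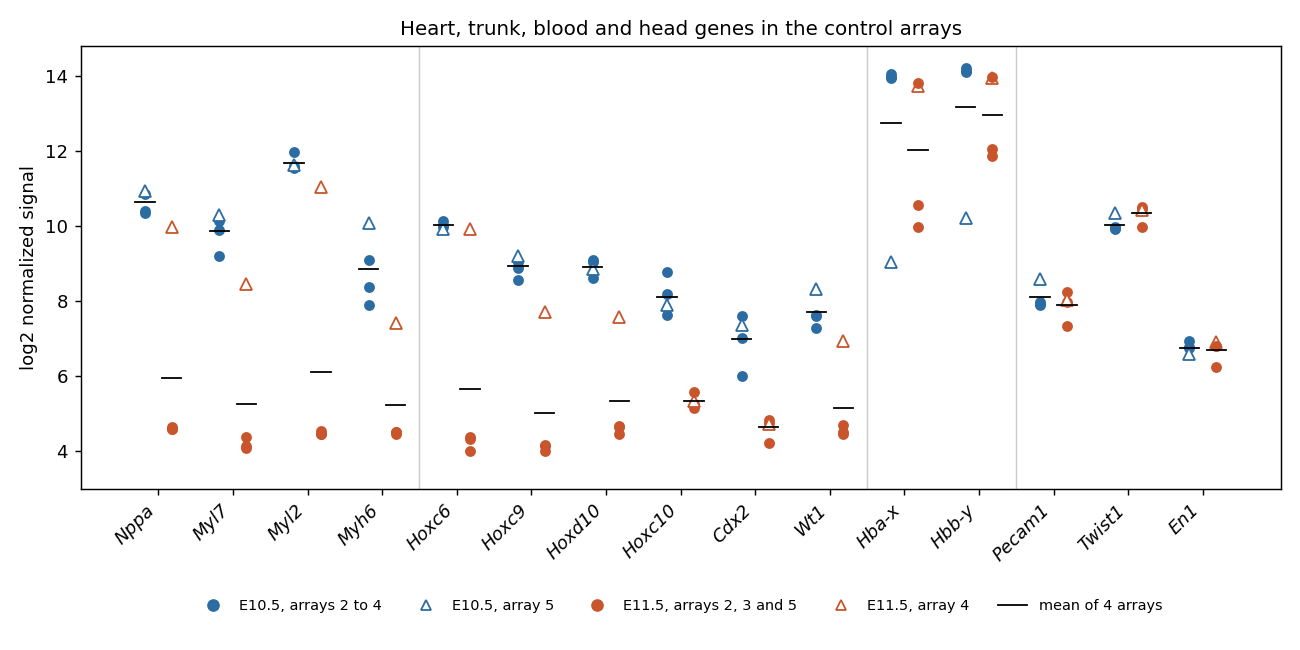
Log2 normalized signal (vertical axis) of heart, trunk, blood and head genes on each control array, with E10.5 in blue, E11.5 in orange, bars at the mean of 4 arrays and triangles for array 5 of E10.5 and array 4 of E11.5. Heart genes and *Hox* genes up to *Hoxd10* were high on all E10.5 arrays and on array 4 of E11.5, whereas *Hoxc10* and *Cdx2* were low on all E11.5 arrays.

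Genes that the head expresses were present at both stages. *Twist1*, a gene of cranial mesenchyme, had means of 10.04 ± 0.20 (SD, n = 4) and 10.34 ± 0.24 in the earlier and later heads. *En1*, a gene of the midbrain and hindbrain boundary, ranged over 6.59 to 6.92 and 6.23 to 6.91. In whole control embryos of E9.5 its mean was 6.89, so its signal does not show how much of a sample is head. Liver and yolk sac genes varied between arrays: *Apoa2*, a lipoprotein gene picked after its values were seen, had 8.01, 9.17, 6.85 and 8.76 at E10.5 and 4.17, 4.60, 9.67 and 4.14 at E11.5, and *Afp* (α-fetoprotein) had 5.35, 6.05, 4.53 and 6.26 and 4.39, 4.25, 6.25 and 4.38, whereas *Alb*, the albumin gene, did not count as detected. The epithelial gene *Epcam* and the macrophage gene *Csf1r* have no named probe here, and *Tubb3*, *Emx2*, *Pax6*, *Myf5* and *Myod1* did not count as detected by their probes. Because the tissue on the arrays changed with the stage, a change over the day and a change in the body parts taken cannot be told apart for genes that heart or trunk express. Nor can they be told apart for genes of the brain, face and sense organs, whose share of the RNA also depends on those parts. Array 4 of E11.5, on which heart genes and many trunk genes were high, is given beside the group values for this reason. In bulk RNA, fewer cells of a type and less RNA per cell cannot be told apart either.

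On principal components of the 13527 detected probes, the first component (45.3% of the variance) separated the stages and the second (31.3%) set array 5 of E10.5 apart. That array correlated with the others of its stage at a median r of 0.946 across probes, against 0.987 to 0.988 for the other E10.5 arrays and 0.965 to 0.979 for the E11.5 arrays. Between 49.4% and 53.5% of probes were detected per array, with the lowest share on array 5 of E10.5. On the first component array 5 of E10.5 (−3.89) lay nearest to the E11.5 arrays (0.92 to 42.4), followed by array 3 (−21.4), with arrays 2 and 4 at −37.7 and −38.2. In many genes described here array 3 had the E10.5 value closest to E11.5.

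Among 10159 detected genes, 754 were higher and 435 lower at E11.5, which is 7.42% and 4.28% (11.7% in either direction). The change was at least 2-fold in 269 of the genes that rose and in 139 of those that fell, and at least 4-fold in 30 and 45. The median log2 change over all detected genes was 0.01. Without array 4 of E11.5, 694 genes were higher and 358 lower, and without array 5 of E10.5, 1059 and 673. Leaving out array 2 or array 4 of E10.5 left 381 and 361 higher genes and 204 and 191 lower genes, and leaving out array 3 or array 5 of E11.5 left 377 and 460 higher and 192 and 255 lower genes. With the mean heart signal of each array as a covariate, a fit added after seeing the data, limma called 0 genes in either direction, and 243 were higher and 142 lower at an unadjusted p under 0.05. This signal was 8.31, 7.74, 8.01 and 8.51 at E10.5 and 4.62, 4.66, 7.29 and 4.70 at E11.5. It nearly follows the stage, so this fit cannot separate the stage from the tissue taken.

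The position of array 4 of E11.5 differed between the genes that rose and the strongest genes that fell. On a scale with the E10.5 mean at 0 and the mean of the other 3 E11.5 arrays at 100%, array 4 lay at a median of 80.9% for genes that rose and 82.0% for genes that fell. It lay below 50% for 10 of the 269 genes that rose at least 2-fold and for 59 of the 139 that fell at least 2-fold. All 20 genes that fell by 3 or more on the log2 scale were among the latter. For these genes array 4 was thus nearer to the E10.5 heads than to the other E11.5 arrays. All genes placed on this scale were called with array 4 in the fit. Genes for which it stayed near the E10.5 level were called less easily, which raises the medians. Of the *Hox* genes 13 were called lower with it and 20 without it.

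**Figure D2:**
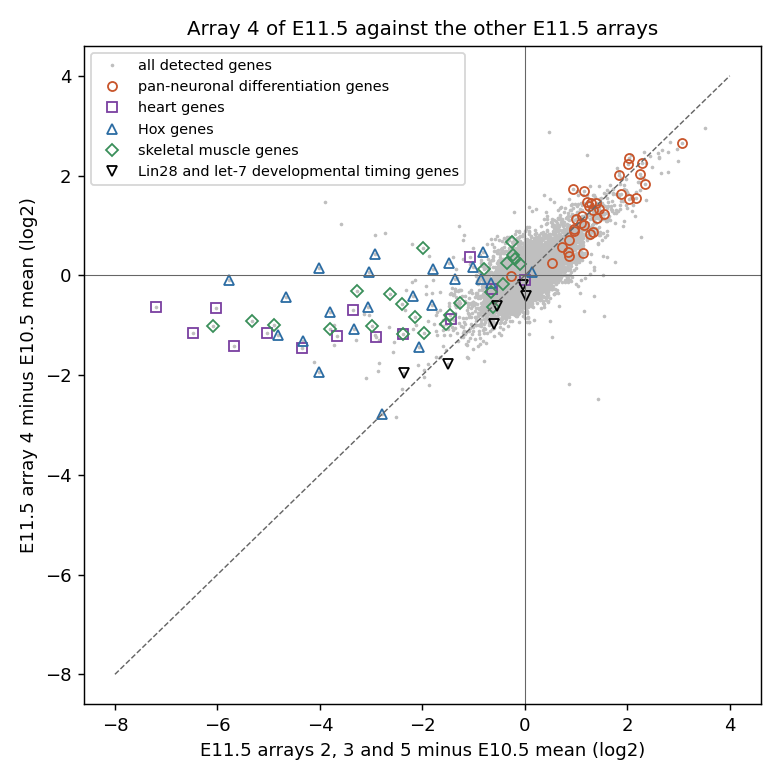
Difference from the E10.5 mean (log2) of array 4 of E11.5 (vertical axis) against that of the other 3 E11.5 arrays (horizontal axis) for all detected genes (grey) and for 5 gene lists, with the dashed line at equality. Neuronal and timing genes lie near the line, and most heart, *Hox* and muscle genes lie above it, towards the E10.5 level.

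Genes of differentiating neurons rose in number and in size. Of 35 detected genes of pan-neuronal differentiation, 27 rose and 0 fell, with a median log2 change of 1.29. For array 4 alone the median difference from the E10.5 mean was 1.30, and without that array 25 genes were called. *Slc17a6*, the vesicular glutamate transporter of excitatory neurons, had log2 signals of 6.42, 8.19, 6.17 and 5.61 at E10.5 and of 9.63, 10.08, 9.55 and 10.65 at E11.5. The stages did not overlap, array 3 of E10.5 was the highest of its stage, and the change of 3.38 was the only rise above 3 on the log2 scale (SE 0.46, adjusted p = 0.00535). *Slc32a1*, the vesicular transporter for GABA and glycine, had 5.05, 6.61, 5.23 and 4.38 and then 8.15, 8.49, 7.85 and 8.26 (log2 change 2.87, SE 0.38, adjusted p = 0.00524). *Gad1*, which encodes the enzyme that makes GABA, had 5.09, 5.17, 4.94 and 4.63 and then 6.64, 7.37, 6.16 and 7.30 (log2 change 1.91, SE 0.26, adjusted p = 0.00524). Genes of excitatory and of inhibitory transmission thus both rose. *Gria2*, an AMPA-type glutamate receptor subunit that was picked after its values were seen, rose by 2.22 on the log2 scale (SE 0.30, adjusted p = 0.00524).

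Genes of synaptic vesicles and of the neuronal cytoskeleton followed. *Syt4*, a synaptotagmin of secretory vesicles, had 5.70, 7.38, 5.31 and 5.04 at E10.5 and 8.29, 8.87, 8.51 and 9.64 at E11.5 (log2 change 2.97, SE 0.46, adjusted p = 0.00699). Of the microtubule-associated proteins, *Mapt* (tau) had 6.46, 7.55, 6.32 and 7.30 and then 8.82, 9.58, 8.94 and 9.07 (log2 change 2.20, SE 0.28, adjusted p = 0.00524), and *Dcx* (doublecortin), which young migrating neurons use, had 7.35, 8.56, 6.93 and 6.78 and then 9.03, 9.86, 9.23 and 10.35 (log2 change 2.21, SE 0.39, adjusted p = 0.0114). In *Mapt* and *Dcx* every E11.5 array lay above every E10.5 array. Further log2 changes were 2.27 for *Stmn3*, 2.07 for *Stmn2* (both tubulin-binding stathmins), 2.11 for *Rtn1*, a reticulon of the neuronal endoplasmic reticulum, 2.56 for *Rufy3*, an adaptor of axon growth, and 1.82 for *Elavl3*, an RNA-binding protein of neurons, with adjusted p-values of 0.00654 to 0.0298. *Cdk5r1*, the activator of the neuronal kinase Cdk5, rose by 1.77 on the log2 scale (SE 0.24, adjusted p = 0.00535). Genes of neurite growth and signaling among the 15 largest rises were *Nrn1* (neuritin, log2 change 2.79), *Islr2*, a membrane protein of growing axons (2.71), *Dner*, a Notch ligand of neurons (2.55), and *Rasgrp1*, a Ras activator (2.81), with adjusted p-values of 0.00217 to 0.00524.

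**Figure D3:**
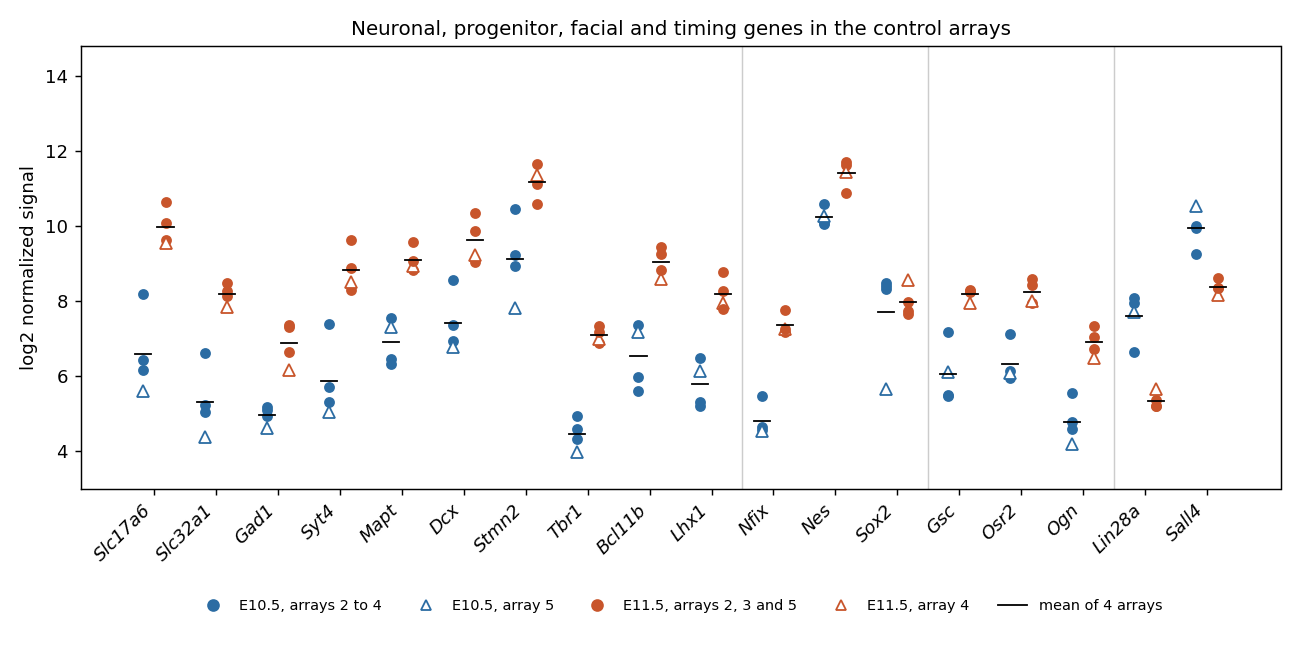
Log2 normalized signal (vertical axis) of neuronal, progenitor, facial mesenchyme and timing genes on each control array, drawn as in the plot of heart and trunk genes. In the neuronal genes the E11.5 arrays lie above the E10.5 arrays with array 3 of E10.5 nearest to them in most, *Sox2* overlaps between stages, and *Lin28a* and *Sall4* lie lower on all E11.5 arrays.

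The start regions of a pair of neuronal genes are shown because a known repressor element can be read in them. The RE1 element binds REST, a repressor that keeps neuronal genes silent in other cells, and the cAMP response element binds CREB and related factors. The promoters (250 bases before to 50 after the start site, RefSeq, build GRCm38.p6) were searched on both strands for the left part of RE1, TTCAGCACC, and for the cAMP response element, TGACGTCA, 2 motifs that do not overlap each other. Of 190 genes with a promoter that rose at least 2-fold, 5 held the first motif (*Celsr3*, *Dner*, *Nsg2*, *Scg2* and *Syn1*), as did 0 of 95 that fell at least 2-fold, 0.487% of 7605 detected genes and 0.433% of all 27025 genes. The second motif was found in 11 of the 190, in 1 of the 95 and in 3.63% of the detected genes. Only *Syn1* and *Scg2* among the genes that rose held both, with the motifs in capitals. *Syn1* encodes synapsin I of synaptic vesicles (chrX:20920869-20921168, minus strand), and *Scg2* encodes secretogranin II of secretory granules (chr1:79439977-79440276, minus strand, with the first motif on the other strand across the start site):
*Syn1*: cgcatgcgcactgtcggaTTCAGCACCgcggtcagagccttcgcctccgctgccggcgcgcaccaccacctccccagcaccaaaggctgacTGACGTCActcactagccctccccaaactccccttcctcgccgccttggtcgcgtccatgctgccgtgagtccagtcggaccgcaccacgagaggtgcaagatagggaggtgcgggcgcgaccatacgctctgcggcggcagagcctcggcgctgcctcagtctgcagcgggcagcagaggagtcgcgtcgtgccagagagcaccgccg
*Scg2*: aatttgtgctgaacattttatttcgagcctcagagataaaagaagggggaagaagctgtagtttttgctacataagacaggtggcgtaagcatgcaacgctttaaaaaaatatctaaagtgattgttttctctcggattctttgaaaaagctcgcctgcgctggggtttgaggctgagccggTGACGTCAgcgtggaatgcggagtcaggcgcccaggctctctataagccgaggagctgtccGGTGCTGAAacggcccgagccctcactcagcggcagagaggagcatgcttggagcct
*Syn1* had 6.67, 7.62, 6.62 and 7.33 at E10.5 and 8.07, 9.41, 8.64 and 9.24 at E11.5 (log2 change 1.78, SE 0.31, adjusted p = 0.0112), and *Scg2* had 4.51, 5.72, 4.58 and 3.76 and then 5.81, 6.08, 6.07 and 6.34 (log2 change 1.43, SE 0.33, adjusted p = 0.0366). The E11.5 arrays lay above the E10.5 arrays for both genes, in *Scg2* narrowly over array 3. On arrays 2, 4 and 5 of E10.5 *Scg2* lay below the lowest signal detected there. *Celsr3*, a cadherin of axon tracts, rose by 1.83 on the log2 scale, and *Nsg2*, a protein of neuronal endosomes, by 1.28. The call of *Scg2* was lost without array 2 or 4 of E10.5 or array 3 or 5 of E11.5. These 4 genes and the motifs were picked after values were seen, and a match of letters is a description of the sequence.

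Transcription factors of neuron classes rose with them. Of 13 detected genes of cortical and glutamatergic neurons 9 rose and 0 fell (median 1.31). *Tbr1*, a T-box factor of the first cortical neurons, was detected on 0 of 4 arrays at E10.5, with signals of 4.33, 4.94, 4.58 and 3.98, and on all 4 at E11.5, with 6.89, 7.33, 6.98 and 7.18. The rise was at least 3.96-fold (adjusted p = 0.000497), counted from the lowest signal that was detected on each E10.5 array. *Bcl11b* (Ctip2), a zinc finger factor of deep-layer and striatal neurons, had 5.97, 7.37, 5.59 and 7.18 and then 9.26, 9.45, 8.58 and 8.82 (log2 change 2.50, SE 0.37, adjusted p = 0.00654), and its relative *Bcl11a* rose by 2.34. *Lhx1* and *Lhx5*, LIM homeodomain factors of early-born neurons, rose by 2.41 and 1.71 on the log2 scale, and *Calb2* (calretinin), a calcium-binding protein of Cajal-Retzius and other early neurons, rose by 2.13. Of 13 detected genes of the Dlx and GABA neuron list 6 rose and 0 fell (median 0.77). Among them were *Dlx1*, a homeobox gene of the ganglionic eminences and of the jaw arch (log2 change 1.44), *Lhx8*, a gene of basal forebrain cholinergic precursors and of oral mesenchyme (1.40), and *Nkx2-1*, a gene of the ventral forebrain (0.77).

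Progenitor and Notch genes had smaller median changes than the neuronal lists. Of 19 detected genes of neural progenitors and radial glia 7 rose and 0 fell (median 0.47), and of 23 proneural and Notch genes 8 rose and 0 fell (median 0.46). Without array 4 of E11.5 5 of the proneural and Notch genes were called, and with median scaling 4. Without array 5 of E10.5 the medians of the lists were 0.27 and 0.19. *Nfix*, a nuclear factor I gene of radial glia, had 4.57, 5.46, 4.64 and 4.53 at E10.5 and 7.18, 7.77, 7.25 and 7.25 at E11.5 (log2 change 2.56, SE 0.22, adjusted p = 0.001), and *Nfib* rose by 1.89 (SE 0.23). On arrays 2, 4 and 5 of E10.5 *Nfix* lay below the lowest signal detected there. *Nes* (nestin), the intermediate filament of neural stem cells, rose by 1.17 on the log2 scale, *Slc1a3*, a glutamate transporter of radial glia, by 0.59, *Ttyh1*, a chloride channel of neural stem cells, by 2.43 and *Ncan*, a proteoglycan of the brain matrix, by 2.37. *Sox2*, the factor that marks neural progenitors, had 8.40, 8.48, 8.31 and 5.65 and 7.73, 7.98, 8.57 and 7.66 (adjusted p = 0.871), with the low value on array 5 of E10.5. *Insm1*, a gene of newborn neurons and their precursors, had means of 7.83 ± 1.01 and then 9.33 ± 0.18 (adjusted p = 0.0635). *Hes6*, a promoter of neurogenesis, rose by 0.87 on the log2 scale and *Ebf1*, a factor of early neurons, by 0.81, with adjusted p-values of 0.034 and 0.0152. *Insm1* was not called without array 4 of E11.5.

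Genes of regional identity in the brain included a pair that rose. Of 18 detected genes of midbrain, isthmus and hindbrain patterning 2 rose and 0 fell: *Otx1*, a homeobox gene of forebrain and midbrain (log2 change 1.01, adjusted p = 0.0496), and *Fgf17*, a growth factor of the isthmus (0.66, adjusted p = 0.0721). Of all detected genes 7.42% were called higher, and with median scaling in place of quantile normalization neither gene was called. *En1* changed by −0.07 on the log2 scale (adjusted p = 0.893). *En2* had 8.56, 7.99, 8.71 and 6.64 at E10.5 and 8.44, 8.94, 8.51 and 8.81 at E11.5 (log2 change 0.70, adjusted p = 0.401). Of 26 axon guidance genes 7 rose and 0 fell, among them the ephrin receptors *Epha3* (log2 change 1.41) and *Ephb1* (1.01), and *Robo1*, the receptor of Slit proteins (0.91), with adjusted p-values of 0.0151 to 0.0277, and 4 were called with median scaling. *Gata2* and *Gata3*, zinc finger factors of brainstem neurons and other tissues, had 7.66, 8.06, 7.29 and 7.97 and 9.66, 9.43, 8.88 and 8.83 for the former (log2 change 1.46, SE 0.23, adjusted p = 0.00767), and a change of 0.79 for the latter. Of 12 genes of the cranial sensory ganglia 2 rose, the neurotrophin receptor genes *Ntrk2* (not called without array 4 of E11.5) and *Ntrk3*, and *Isl1* and *Pou4f1*, which mark sensory neurons, had adjusted p-values of 0.632 and 0.206.

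The sense organs gave small lists with a few strong members. Of 11 detected genes of the eye field and optic cup 4 rose and 0 fell. *Aldh1a1*, which encodes the retinoic acid-making enzyme of the dorsal retina, was detected on 0 arrays at E10.5 and on 4 at E11.5, at least 1.44-fold higher (adjusted p = 0.0129). *Lhx2*, needed for the optic vesicle, rose by 0.88 on the log2 scale, *Foxn4*, a factor of retinal progenitors, by 0.85 and *Tbx2* by 0.94. In the lens list, 7 of 27 genes with a probe were detected. *Cryba1*, a β-crystallin of lens fibers, had 5.28, 5.49, 5.11 and 5.11 at E10.5 and 5.98, 6.72, 6.35 and 8.05 at E11.5 (log2 change 1.53, SE 0.36, adjusted p = 0.0406), and *Crybb3* rose by 0.90 (adjusted p = 0.0793, not called without array 4 of E11.5). Array 5 of E11.5 was the highest for both. *Cryab*, a small heat shock protein of lens and of muscle, had 6.84 to 7.53 and then 5.65 to 6.12 and fell by 1.32 on the log2 scale (SE 0.19, adjusted p = 0.00591). *Cryba4*, *Mip*, *Prox1* and *Tdrd7*, the other detected members, had adjusted p-values of 0.254 to 0.963, and *Cryaa* (αA-crystallin) did not count as detected.

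Of 5 detected pigment genes 3 rose, and of 7 detected inner ear genes 2 rose, with 0 that fell in either list. *Pmel*, a protein of the melanosome fibrils, had 4.88, 5.37, 4.53 and 4.71 at E10.5 and 6.97, 6.66, 5.97 and 6.81 at E11.5 (log2 change 1.73, SE 0.24, adjusted p = 0.00535), and *Dct*, an enzyme of melanin synthesis, rose by 1.46 (SE 0.22). Each was detected on 1 array at E10.5 and on all 4 at E11.5. *Oc90*, the main protein of the otoconia in the inner ear, had 5.90, 6.49, 5.88 and 6.15 and then 8.20, 7.97, 7.51 and 8.47 (log2 change 1.93, SE 0.22, adjusted p = 0.00381). *Ttr* (transthyretin), which the choroid plexus and pigment epithelium of the head and also the yolk sac and liver express, had 7.11, 7.68, 6.05 and 8.77 and then 9.96, 10.26, 9.47 and 10.36 (log2 change 2.61, SE 0.46, adjusted p = 0.0114), with a wide spread at E10.5. The roof plate and choroid plexus list had 5 genes that rose of 18 detected, with *Rspo2*, an enhancer of Wnt signaling, at a log2 change of 1.52.

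Facial mesenchyme split into genes that rose and genes that fell. Of 31 detected transcription factor genes of this list 9 rose and 5 fell. *Gsc* (goosecoid), a homeobox gene of the lower jaw and the ear region, had 5.51, 7.17, 5.47 and 6.12 at E10.5 and 8.30, 8.27, 7.93 and 8.24 at E11.5 (log2 change 2.12, SE 0.32, adjusted p = 0.00678). *Osr2*, a zinc finger gene of the palate, had 6.13, 7.11, 5.94 and 6.08 and then 8.59, 7.95, 7.99 and 8.42 (log2 change 1.92, SE 0.26, adjusted p = 0.00524), and *Six2*, a gene of frontonasal mesenchyme, rose by 1.63 (SE 0.25). *Msx1*, a gene of tooth and palate mesenchyme, rose by 0.92 on the log2 scale, and *Tfap2b*, a gene of facial neural crest, by 0.98. For *Gsc*, *Osr2*, *Six2* and *Msx1* array 4 of E11.5 lay above every E10.5 array, and for *Tfap2b* it did not. The largest falls of the list were in genes that somites and the trunk also express: *Meox1*, a homeobox gene of somites, had 9.78, 9.25, 9.64 and 9.97 and then 5.46, 6.25, 8.26 and 6.08 (log2 change −3.15, SE 0.47, adjusted p = 0.00675), *Meox2* had a log2 change of −1.50, and *Tcf21*, a gene of the epicardium, kidney and branchial arch muscle, fell by 1.95. On array 4 these 3 genes lay at 37.6%, 11.2% and 24.1% of the way from the E10.5 mean to the other E11.5 arrays. *Prrx1*, a general gene of limb and facial mesenchyme, ranged over 7.74 to 8.13 and 7.33 to 9.18 (adjusted p = 0.643).

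Extracellular matrix genes of mesenchyme rose in 10 of 32 detected members, and 1 fell (median 0.33). *Ogn* (osteoglycin), a small proteoglycan, was detected on 1 array at E10.5, with 4.79, 5.55, 4.58 and 4.19, and on all at E11.5, with 7.33, 6.73, 6.48 and 7.04 (log2 change 2.12, SE 0.27, adjusted p = 0.00524). *Lox*, the enzyme that crosslinks collagen, had 6.36, 6.99, 6.05 and 6.40 and then 8.59, 7.90, 7.75 and 7.94 (log2 change 1.59, SE 0.23, adjusted p = 0.00595). *Col6a2*, a collagen VI chain, rose by 1.28 on the log2 scale, *Fbln2* (fibulin 2) by 1.11, *Mfap4*, a protein of elastic fibers, by 0.96 and *Thbs2* (thrombospondin 2) by 0.93. Of 9 detected cartilage and bone genes 1 rose and 1 fell, and 8 had a change above 0 (median 0.54). Without array 5 of E10.5, 6 rose and 1 fell. With all arrays, *Col9a2*, a collagen of cartilage, rose by 1.18 on the log2 scale and *Hapln1*, the link protein of cartilage matrix that the heart cushions also make, fell by 1.17. In the epithelial list, 2 of 22 genes rose and 3 fell, and without array 5 of E10.5 4 rose. These counts and those of the cartilage list can be read against the shares of all detected genes, 7.42% higher and 4.28% lower. *Krt14*, the keratin of basal skin cells, rose by 1.09 on the log2 scale (adjusted p = 0.0167), whereas the keratins of simple epithelia and periderm, *Krt18*, *Krt19* and *Krt8*, fell by 1.20, 1.00 and 0.96 (adjusted p = 0.0842, 0.0252 and 0.0635), of which *Krt8* and *Krt18* were not called without array 4 of E11.5. *Trp63*, the master factor of stratified epithelia, had an adjusted p of 0.636.

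A set of early embryonic genes fell on all E11.5 arrays, array 4 included. Because array 4 was also low for *Hoxc10* and *Cdx2*, it cannot tell a fall over the day from a loss of posterior tissue. *Lin28a* encodes the RNA-binding protein that blocks maturation of let-7 microRNAs and is known in worms and mice for timing developmental steps. It had 7.95, 6.65, 8.08 and 7.71 at E10.5 and 5.36, 5.19, 5.64 and 5.20 at E11.5 (log2 change −2.25, SE 0.27, adjusted p = 0.00524), with array 3 of E10.5 nearest to E11.5. *Sall4*, a zinc finger factor of stem cells and early limb and tail buds, had 10.01, 9.26, 9.96 and 10.54 and then 8.36, 8.61, 8.17 and 8.34 (log2 change −1.57, SE 0.23, adjusted p = 0.00662), and *Dnmt3b*, a DNA methyltransferase, fell by 0.56 (adjusted p = 0.0626, 0.13 without array 4 of E11.5). On array 4 they lay at 83.2%, 118% and 114% of the way. Of the 6 detected genes of this timing list 3 fell and 0 rose, and the other members, *Arid3b*, *Igf2bp1* and *Igf2bp3*, had log2 changes of −0.70, −0.09 and −0.08 (adjusted p = 0.117 or more). Of other genes picked after their values were seen, *Nr6a1*, a nuclear receptor of trunk development, had 8.36, 6.91, 8.59 and 8.48 and then 6.34, 6.45, 6.44 and 6.25 (log2 change −1.72, SE 0.31, adjusted p = 0.0135). *Prtg* (protogenin) and *Igdcc3*, membrane proteins of the early neural tube, fell by 1.87 and 1.17 on the log2 scale, and *Arid3a*, a DNA-binding protein, fell by 1.24. *Cdx2* (at least 3.79-fold), *Etv2*, a master factor of the first endothelial cells (at least 3.94-fold), and *Hand1*, a gene of heart, lateral mesoderm and extraembryonic tissue (at least 1.48-fold), were detected on all E10.5 arrays and on none at E11.5.

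No *Hox* gene was called higher. Of 38 genes with a probe 23 were detected, and 13 of these fell and 0 rose, with a median log2 change of −2.09. Without array 4 of E11.5, 20 fell. By paralog group, 1 of 5 detected genes of groups 1 to 3, 2 of 5 of groups 4 to 5, all 5 of groups 6 to 8 and 5 of 8 of groups 9 to 13 were called. *Hoxc6* had 10.01, 10.14, 9.97 and 9.93 at E10.5 and 4.00, 4.32, 9.92 and 4.38 at E11.5 (log2 change −4.36, SE 1.05, adjusted p = 0.0464), so that array 4 lay just below the lowest E10.5 array while the others lay at background, and the call was lost without array 2 or 4 of E10.5 or array 2, 3 or 5 of E11.5. The log2 changes of *Hoxb7*, *Hoxd9*, *Hoxd10*, *Hoxa7* and *Hoxc9* were −3.60, −3.50, −3.57, −3.03 and −3.92. *Hoxc10*, which array 4 did not keep, gave the smallest p of the list (log2 change −2.79, SE 0.22, adjusted p = 0.000601). *Wt1*, a gene of the kidney and epicardium picked after its values were seen, had 7.62, 7.60, 7.29 and 8.31 and then 4.69, 4.47, 6.92 and 4.52 (log2 change −2.55, SE 0.48, adjusted p = 0.0152).

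Muscle genes held the largest falls of all. Of 14 detected heart genes 11 fell and of 24 detected skeletal muscle genes 16 fell, and 0 rose in either list. *Myl2*, the ventricular myosin light chain, had 11.98, 11.60, 11.54 and 11.61 at E10.5 and 4.45, 4.53, 11.04 and 4.45 at E11.5 (log2 change −5.56, SE 1.21, adjusted p = 0.0298). *Actc1*, cardiac actin, had 11.84 to 12.39 and then 6.41, 6.70, 11.13 and 7.09 (log2 change −4.22, SE 0.83, adjusted p = 0.0185), and *Ankrd1*, a muscle stress protein, had 8.38 to 9.65 and then 5.02, 4.66, 7.17 and 4.70 (log2 change −3.52, SE 0.50, adjusted p = 0.00573). In each of these genes array 4 lay between the stages or near the E10.5 level. Falls of more than 3 on the log2 scale were also found for the muscle genes *Myl3*, *Myl4*, *Nppa*, *Myl7*, *Csrp3*, *Tnnc1*, *Myh6* and *Acta1*, and *Myl1* and *Ttn* fell by 2.53 and 2.50. Without array 4 the change of *Myl2* was −7.20 and its adjusted p 7.46e-09, against 0.0298 with it. The skeletal muscle factors *Myf5* and *Myod1* were not detected at either stage, and many genes of the skeletal list that fell are used in the embryonic heart as well. The promoters of *Actc1* (chr2:114052826-114053125) and *Myl7* (chr11:5898733-5899032, both minus strand, RefSeq, GRCm38.p6) are shown with their CArG box, the site of serum response factor in muscle genes, in capitals:
*Actc1*: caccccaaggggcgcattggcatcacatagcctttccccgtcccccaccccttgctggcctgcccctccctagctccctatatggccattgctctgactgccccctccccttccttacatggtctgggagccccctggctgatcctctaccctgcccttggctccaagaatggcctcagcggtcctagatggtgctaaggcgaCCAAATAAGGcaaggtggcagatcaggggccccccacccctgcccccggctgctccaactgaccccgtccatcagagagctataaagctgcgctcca
*Myl7*: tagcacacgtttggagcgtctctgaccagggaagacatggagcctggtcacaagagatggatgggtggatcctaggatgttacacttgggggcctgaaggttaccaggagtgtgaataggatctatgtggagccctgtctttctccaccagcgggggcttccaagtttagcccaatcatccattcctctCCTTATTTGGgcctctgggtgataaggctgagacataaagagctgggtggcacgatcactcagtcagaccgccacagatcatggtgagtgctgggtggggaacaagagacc
This motif, a pair of C and a pair of G around a run of A or T, overlaps neither of the other motifs in these promoters and, searched on both strands, was found in 6 of the 95 promoters of genes that fell at least 2-fold (*Acta1*, *Actc1*, *Asb2*, *Myl3*, *Myl7* and *Myom1*), in 2 of the 190 that rose and in 1.80% of the promoters of detected genes.

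Globin signals varied between the arrays of a stage. *Hba-x*, the embryonic α-globin, had 14.04, 13.94, 13.97 and 9.03 at E10.5 and 9.98, 10.56, 13.74 and 13.82 at E11.5 (adjusted p = 0.84), with low values on array 5 of E10.5 and on arrays 2 and 3 of E11.5. *Hbb-y*, *Hbb-bh1* and *Hba-a1* had the same low arrays and adjusted p-values of 0.945, 0.789 and 0.794. Without array 5 of E10.5 none of the 4 was called and their median log2 change was −1.51, against −0.66 with it. Of 12 other erythroid genes 1 rose, *Bcl11a*, which is also a gene of neurons, and 0 fell (median −0.88, and −0.93 in mutant heads). Without array 5 of E10.5, 6 of the 12 fell, with a median log2 change of −1.46. Of 30 detected endothelial and pericyte genes 0 rose and 2 fell, *Acta2*, the smooth muscle actin that is also used in the early heart (12.67, 12.18, 12.23 and 12.95, then 10.56, 10.28, 11.43 and 10.16; log2 change −1.90, SE 0.27, adjusted p = 0.00617), and *Slc2a1*, a glucose transporter (−0.67), which was not called without array 4 of E11.5. Over all detected genes 7.42% were called higher and 4.28% lower. The endothelial genes *Pecam1*, *Cdh5* and *Kdr* changed by −0.19, −0.09 and 0.06 on the log2 scale (adjusted p = 0.748, 0.896 and 0.915).

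Macrophage genes rose in 6 of 14 detected members, with 0 that fell and a median log2 change of 0.88. *F13a1*, the coagulation factor XIII subunit of macrophages, had 5.13, 6.25, 4.53 and 4.53 at E10.5 and 6.73 to 7.27 at E11.5 (log2 change 1.89, SE 0.33, adjusted p = 0.0112). *C1qb*, a complement chain, had 5.28, 6.68, 5.07 and 4.63 and then 6.23, 7.16, 6.95 and 7.26 (log2 change 1.49, SE 0.38, adjusted p = 0.061), so that array 3 of E10.5 lay above array 2 of E11.5. *C1qc* rose by 1.40 on the log2 scale, *Mrc1*, the mannose receptor, by 1.19 and *Coro1a*, an actin regulator of leukocytes, by 0.96, with adjusted p-values of 0.0976, 0.0935 and 0.0748. *C1qa*, another complement chain, did not count as detected. *Trem2*, a receptor of microglia, was detected on none of the E10.5 arrays and on all at E11.5 (at least 1.17-fold, adjusted p = 0.0199). Without array 4 of E11.5 only *F13a1* and *Trem2* were called.

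**Figure D4:**
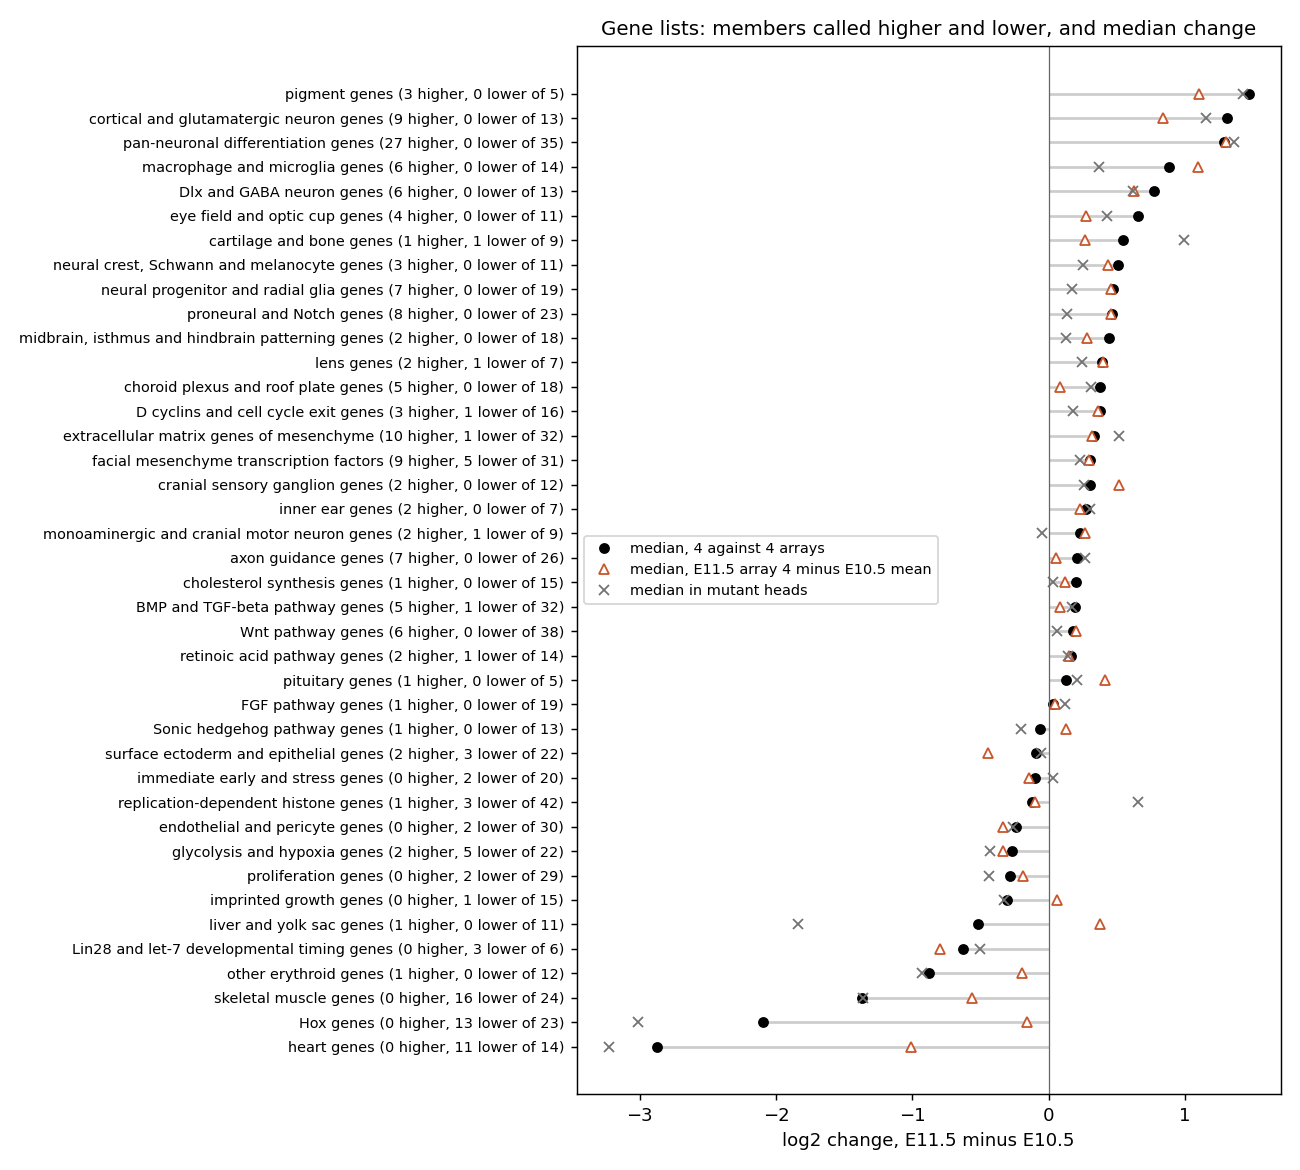
Median log2 change from E10.5 to E11.5 (horizontal axis) of each gene list with at least 5 detected members, for all arrays (black), for array 4 of E11.5 against the E10.5 mean (orange triangles) and in mutant heads (grey crosses), with the number of members called. The pan-neuronal list lies at 1.29, 1.30 and 1.36 in the 3 readings, and the heart, *Hox* and muscle lists move towards 0 on array 4.

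Of 29 detected proliferation genes 2 fell and 0 rose: *Cdc6*, which loads the replicative helicase (log2 change −0.63, adjusted p = 0.083), and *Mcm5*, a subunit of that helicase (−0.41, adjusted p = 0.0988). The change was above 0 for 1 of the 29 genes, and the median was −0.29. Without array 5 of E10.5 6 genes of this list fell, and with median scaling 1. The counts in this paragraph can be read against the 4.28% of all detected genes called lower and the 7.42% called higher. *Gadd45g* and *Btg1*, which slow the cell cycle, rose by 1.00 and 0.64 on the log2 scale, and *Myc*, a transcription factor that drives cell growth, fell by 0.93 (adjusted p = 0.0114, 0.0921 and 0.0178). Of 42 detected replication-dependent histone genes 1 rose (*H2bc18*, 0.82) and 3 fell (*H3c7*, *H4c18* and *H2ac8*, by 1.05, 0.89 and 0.87 on the log2 scale), and since histone copies are nearly identical a probe may capture more than 1 of them. Of 22 genes of glycolysis and hypoxia 2 rose and 5 fell, and 3 fell without array 4 of E11.5. *Slc2a3*, a glucose transporter, fell by 1.16 on the log2 scale, *Aldoa*, a glycolytic enzyme, by 0.73 and *Slc16a3*, the lactate exporter, by 0.71, whereas *Eno2*, the neuronal enolase, rose by 0.92 and *Ddit4*, a stress gene that restrains growth signaling, by 0.86. *Phlda2*, an imprinted gene that restrains placental growth, was the only 1 of 15 imprinted growth genes that was called, with a log2 change of −1.32, whereas 3 fell without array 4 of E11.5 and 2 rose without array 5 of E10.5.

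Among signaling pathways the Wnt list had 6 of 38 detected genes higher and 0 lower, the BMP and TGF-β list 5 of 32 higher and 1 lower, the retinoic acid list 2 of 14 higher and 1 lower, and the FGF and Sonic hedgehog lists 1 of 19 and 1 of 13 higher. The ligand *Wnt7b*, made by cortical neurons, had 7.68, 8.43, 7.51 and 7.85 at E10.5 and 9.08, 9.72, 8.99 and 9.70 at E11.5 (log2 change 1.51, SE 0.23, adjusted p = 0.00727), the ligand *Wnt9b* of facial ectoderm rose by 0.84, and *Tcf7l2*, a transcription factor at the end of this pathway, by 0.82. *Nbl1*, an extracellular BMP inhibitor, had 6.64, 7.63, 6.64 and 7.21 and then 8.97, 9.04, 8.53 and 8.70 (log2 change 1.78, SE 0.23, adjusted p = 0.00524), *Chrd* (chordin), another one, rose by 0.61, and the co-receptor *Tgfbr3* fell by 0.66 (adjusted p = 0.0879, 0.148 without array 4 of E11.5). *Aldh1a2*, the main retinoic acid-making enzyme of trunk mesoderm, fell by 1.16 on the log2 scale, with array 4 at 47.4% of the way. These shares can be read against the 7.42% and 4.28% of all detected genes.

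The same day was also measured in *Aey69* mutant heads, on 4 arrays for each stage that share none with the controls. The mutant E10.5 samples carried the same heart and trunk genes (*Nppa* 10.22 to 10.48, *Hoxc9* 8.20 to 9.35), and no mutant E11.5 sample did (*Nppa* 4.08 to 4.68, *Hoxc9* 4.21 to 4.66). Of the 10159 genes, 10.6% were called higher and 6.85% lower in mutants. Of the 754 genes higher in controls, 540 were called higher in mutants (71.6% of the control calls and 50.2% of the mutant calls), and 745 had the same sign. Of the 435 genes lower in controls, 294 were called lower in mutants (67.6% and 42.2%), 429 had the same sign and 3 were called in the other direction. *Slc17a6* changed by 3.32 on the log2 scale in mutants, *Lin28a* by −2.46, *Gsc* by 2.62 and *Tbr1* by 1.53, beside changes of 3.38, −2.25, 2.12 and 2.63 in controls.

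**Figure D5:**
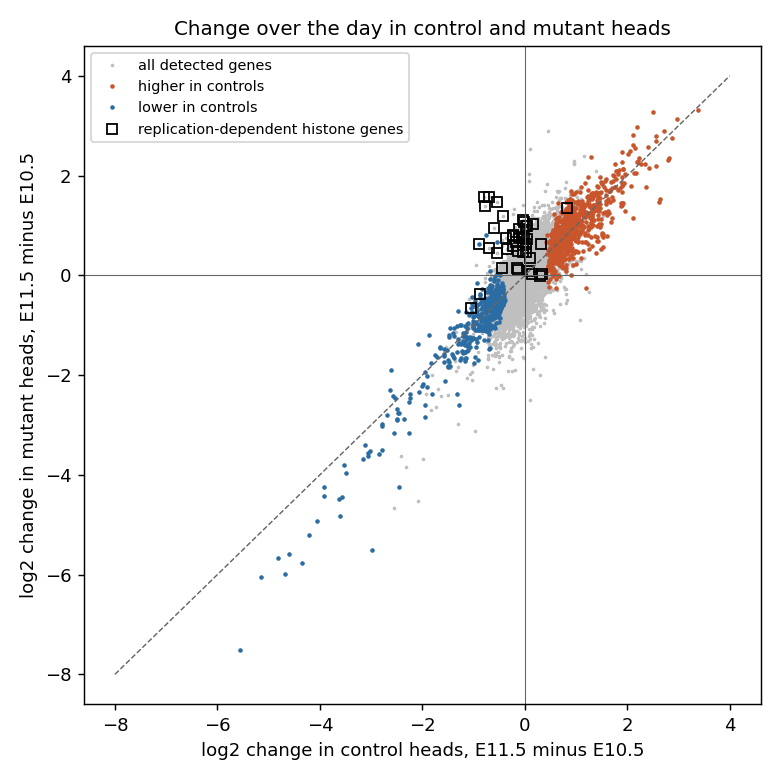
Log2 change from E10.5 to E11.5 in mutant heads (vertical axis) against control heads (horizontal axis) for all detected genes, with genes called higher in controls in orange, those called lower in blue, replication-dependent histone genes as squares and the dashed line at equality. Most called genes lie along the line, and many histone genes lie above it.

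The change over the day differed between genotypes at 8 of 13874 detected probes (0.0577%) in the interaction test, with 544 at an unadjusted p under 0.05. Of the 8, 6 probes belong to replication-dependent histone genes, which fell or were not called in controls and were higher at E11.5 in mutants. *H2bc7* had 10.13, 9.17, 10.23 and 10.44 at E10.5 and 9.71, 8.86, 9.36 and 8.86 at E11.5 in controls, a log2 change of −0.80, against 1.56 in mutants (adjusted p of the difference = 0.0574). *H2bc9* changed by −0.70 and 1.57 on the log2 scale (0.0574), *H2bc3* by −0.43 and 1.19 (0.0639), *H4c12* by −0.60 and 0.94 (0.0596) and *H4c18* by −0.89 and 0.64 (0.0639). *H3c14*, the current name of the mutated gene *Hist2h3c1*, changed by −0.73 and 1.29 (adjusted p of the difference = 0.0842). It had 5.88, 5.53, 6.15 and 6.64 at E10.5 and 5.49, 5.50, 5.32 and 4.97 at E11.5 in controls. In mutants it had 5.31, 5.57, 5.24 and 5.49 and then 6.07, 7.25, 7.02 and 6.43. The study's quantitative PCR compared mutants with wild types within a stage and reported lower *Hist2h3c1* in mutants at these stages. On the arrays the mutant values lay mostly below the control values at E10.5 and all above them at E11.5. The reason for this difference from the PCR was not tested. The U6 RNA gene *Rnu6* and a probe without a gene name were the other probes called. Over the 42 detected histone genes the median log2 change was −0.12 in controls and 0.65 in mutants. In a fit over all 36 kept arrays 1 probe was called. No gene of the neuronal, mesenchymal or timing lists was among the 8.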

How the data were processed

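Heads of wild-type C3HeB/FeJ embryos at E10.5 and E11.5 were grouped by the titles and labels, 4 arrays each. Total RNA was amplified, biotin-labeled and hybridized to Illumina MouseRef-8 v2.0 bead arrays. The authors deposited background-subtracted intensities with a detection p-value for each probe (detection p-values as GenomeStudio gives them), and separately a table of intensities to which they had added an offset and which they had quantile normalized over the 36 arrays they kept. The background-subtracted intensities of these 36 arrays were used here with an offset of 22 added to each (the lowest value was −21), quantile normalized together and taken as log2. An offset compresses changes of dim genes. Probes were named from the platform annotation: 23978 of the 25697 have 1 gene and 1719 have none, and the latter stay in the counts under their probe number. A gene is represented by its brightest probe over the 8 arrays. Of genes with several detected probes, 253 had some but not all probes called and 0 had probes called in opposite directions.

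The stages were compared with limma 3.58.1 (R 4.3.3, lmFit and eBayes) and Benjamini-Hochberg adjustment, as in the study's methods, and the fit was tested on simulated data before use. The changes of control and mutant heads were compared by an interaction term over the 16 head arrays. Where a gene was not detected on any array of a stage, the fold is a lower bound against, per array, the higher of the lowest detected signal and the gene's own signal. Where only some arrays of a stage detected a gene, its change is given as measured and is less certain in size. Genes were named if they were among the 15 largest called changes of either direction or among the 6 largest called changes of a list. Detected members of the globin, timing and lens lists, most cell type markers and the genes with the largest interaction were named as well. Most undetected members of these lists are not named. A marker gene is not reported here. The members and lists were chosen with earlier results of these data known. Alternatives covered normalization, offset, detection filter, arrays in the fit, array weights, threshold, replicate block and the omission of each array. Labels do not say whether replicates are single embryos, so p-values measure the spread between these samples. No columns of the authors' own comparisons were used.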

Additional observations from a re-analysis of the deposited data

Results flagged for a closer look

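Single arrays that lay far from the other 3 of their stage, by the ratio of the gap to the nearest array and the range of the stage, are given with their log2 signals. Chance gives about 1 in 20 groups such an array. In E11.5 array 4 these were *Actc1* 11.13, *Afp* 6.25, *Ankrd1* 7.17, *Apoa2* 9.67, *Csrp3* 8.43, *Gsc* 7.93, *Hoxa7* 7.64, *Hoxb7* 8.45, *Hoxc6* 9.92, *Hoxc9* 7.72, *Hoxd10* 7.58, *Myh6* 7.40, *Myl2* 11.04, *Myl3* 9.86, *Myl4* 10.99, *Myl7* 8.46, *Nppa* 9.97, *Tfap2b* 8.91, *Wt1* 6.92, the mean of the heart genes 7.44 and the mean of the liver and yolk sac genes 7.07. *Gsc* and *Tfap2b* were low there and the others high. Array 4 is the E11.5 array with heart and trunk genes, and their part in these values was not tested.

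In E10.5 array 5 the genes and lists were *Cdh5* 7.82, *Hba-a1* 10.81, *Hba-x* 9.03, *Hbb-bh1* 10.67, *Hbb-y* 10.21, *Hoxa7* 9.28, *Kdr* 5.84, *Lhx8* 5.74, *Pecam1* 8.58, *Sox2* 5.65, *Twist1* 10.33, the mean of the primitive and definitive globin genes 10.18, the mean of the midbrain, isthmus and hindbrain patterning genes 7.19, the mean of the cartilage and bone genes 7.46 and the mean of the endothelial and pericyte genes 8.54. Over all 10159 detected genes, 1166 had this array apart from its stage, against 31 to 150 for each of the other 7 arrays. In E10.5 array 3 they were *Nfix* 5.46, *Nr6a1* 6.91, *Osr2* 7.11, *Rufy3* 8.52, *Six2* 6.97, *Slc16a3* 6.31 and the mean of the cortical and glutamatergic neuron genes 6.97, each on the side of the E11.5 arrays. In E10.5 array 2 this held for *Myl2* 11.98, and in E10.5 array 4 for the mean of the sex-linked check genes 5.38. At E11.5, array 3 had *Elavl3* 9.42 and *Nfix* 7.77, array 2 had *En1* 6.23, *Epha3* 9.30, *Lhx8* 8.35 and *Slc2a1* 11.10, and array 5 had *Twist1* 9.98, the mean of the FGF pathway genes 7.67 and the mean of the retinoic acid pathway genes 7.30.

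A test of the difference itself set apart 8 probes whose change over the day was not alike in control and mutant heads. The control change minus the mutant change on the log2 scale was *H4c12* −1.54, *H2bc9* −2.26, *H2bc7* −2.36, *H2bc3* −1.62, *H4c18* −1.52, *Rnu6* −1.56, *H3c14* −2.02 and for a probe without a gene name 2.61.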

How the results depend on the processing

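The counts of 754 higher and 435 lower genes became 1283 and 874 with array weights, 1260 and 912 with the axis along which arrays differ within all other groups as a covariate, and 141 and 59 at a false discovery rate of 1%. Without single arrays they ranged from 361 to 1059 and from 191 to 673. With the mean heart signal as a covariate, added after seeing the data, limma called 0 and 0 genes (243 and 142 at an unadjusted p under 0.05), and the change turned its sign for *Actc1* 0.30, *Afp* 1.28, *Apoa2* 2.84, *Cdh5* 0.60, *Cryba4* −0.013, *Csrp3* 0.015, *En1* 0.17, *Fgf17* −0.073, *Hba-a1* 0.74, *Hba-x* 0.75, *Hbb-bh1* 0.36, *Hbb-y* 0.43, *Hoxa7* 0.24, *Hoxb7* 0.59, *Hoxc6* 1.35, *Meox2* 0.34, *Myl1* 0.61, *Myl2* 1.10, *Myl3* 0.40, *Myl4* 0.47, *Nppa* 0.87, *Pecam1* 0.085, *Prox1* −0.15, *Tnnc1* 0.21 and *Trp63* −0.43. That covariate is made from heart genes and nearly follows the stage. A lost or turned change in heart genes is thus largely built into this fit and says little about them. The other alternatives (median scaling, normalization of the 8 arrays alone, log2 before normalization, the deposited processed table, an offset of 100, other detection filters, 16 or 36 arrays in the fit, an intensity trend, a change of at least 1.5-fold, any probe of a gene) kept both counts within 1.5 times. The count of 8 probes that differed between genotypes became 1 with 36 arrays in the fit.

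With the replicate number of the sample titles as a block 850 and 495 genes were called. These numbers run from 1 to 4 and are not the array numbers used above. Deviations of samples with the same title number, in that order, correlated at 0.34, −0.27, 0.40 and 0.32. Labels do not say what samples with equal numbers share, and the numbers were not taken as pairs.

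Of 142 called genes named here, 142 kept their direction in all alternatives except the heart covariate, and 100 kept the call without each single array. Without E11.5 array 4 the calls of *Btg1*, *C1qb*, *C1qc*, *Coro1a*, *Crybb3*, *Dnmt3b*, *Insm1*, *Krt18*, *Krt8*, *Mcm5*, *Mrc1*, *Ntrk2*, *Rnu6*, *Slc2a1*, *Tbx2* and *Tgfbr3* were lost, and without E10.5 array 5 those of *Btg1*, *C1qc* and *Mrc1*. Without at least 1 of the other arrays the calls of *Aldoa*, *Cdc6*, *Chrd*, *Cryba1*, *Fgf17*, *Hes6*, *Hoxb7*, *Hoxc6*, *Lhx2*, *Meox2*, *Mfap4*, *Msx1*, *Myl1*, *Myl2*, *Nkx2-1*, *Nppa*, *Ntrk3*, *Otx1*, *Phlda2*, *Scg2*, *Slc16a3*, *Slc1a3*, *Slc2a3*, *Tcf7l2*, *Tfap2b* and *Wnt9b* were lost as well. Genes that were not called changed sign with array weights (*Cdh5* 0.080 and *Sox2* −0.19) and with the axis as a covariate (*Hbb-y* 0.040). Without single arrays their log2 changes ranged from −0.23 to 0.095 for *Cdh5*, −0.15 to 0.078 for *En1*, −1.19 to 0.16 for *Hbb-y*, −0.22 to 0.056 for *Igf2bp1*, −0.0086 to 0.22 for *Kdr*, −0.090 to 0.21 for *Prox1* and −0.41 to 0.53 for *Sox2*. Genes below detection at a stage carry only a lower bound of the fold, and 4 arrays a stage limit the precision.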
